A study of Rattus norvegicus with 6 samples.

Results

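The genes described here are 10 imprinted genes of which the paternal copy is the expressed one: Peg10, Sgce, Plagl1, Impact, Peg3, Inpp5f, Mest, Igf2, Peg12 and Zrsr1. They were taken by symbol from the table of raw RNA-seq counts, in which all 10 had a row among 16319 genes. The set was proposed with the difference between the groups already known, so the counts, folds, standard errors and calls below describe the members and are not a test of the set. All 10 passed the filter on low counts, which kept 12028 genes.

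RNA-seq was performed on 3 Nono-KO and 3 WT libraries of H9c2, a myoblast line from embryonic rat heart that the labels call cardiomyocytes. Nono-KO cells carry a homozygous frameshift in Nono, which encodes an RNA- and DNA-binding paraspeckle protein. They were made with a Cas9 and guide plasmid followed by puromycin selection and were expanded from a clone, and WT cells are labelled wild type for the same line, with a green fluorescent protein plasmid named as the control. Both groups share the parental line, the medium and the same RNA and library kits. All Nono-KO libraries come from 1 knockout line, so the error given measures the spread between libraries and not between independent clones. Whether the libraries came from separate cultures is not stated in the labels. The study's methods give 3 biological replicates for RNA-seq without saying how these were grown.

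Genomic imprinting leaves a gene active from only the maternal or only the paternal chromosome. The choice is carried by DNA methylation laid down in the egg or the sperm at control regions and then kept through cell division, with KRAB zinc finger proteins such as ZFP57 and the corepressor TRIM28 protecting the mark in the mouse embryo. Many paternally expressed genes act in placental growth, fetal growth and muscle. The assignments used here are textbook ones, mostly from mouse, and some hold only in certain tissues or for certain transcripts. The counts are per gene and do not separate the parental copies, so which copy gave the reads was not measured.

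Peg10 and Sgce lie head to head on rat chromosome 4, and their promoters are shown because these were the members whose counts came closest to 0 in Nono-KO cells. The sequences are RefSeq windows of the GRCr8 build, from 250 bases before to 50 bases after each annotated start, for Peg10 at chr4:33808776-33809075 on the plus strand and for Sgce at chr4:33808739-33809038 on the minus strand. Capitals mark TGCCGC, the core of the ZFP57 motif, or its reverse complement.
Peg10: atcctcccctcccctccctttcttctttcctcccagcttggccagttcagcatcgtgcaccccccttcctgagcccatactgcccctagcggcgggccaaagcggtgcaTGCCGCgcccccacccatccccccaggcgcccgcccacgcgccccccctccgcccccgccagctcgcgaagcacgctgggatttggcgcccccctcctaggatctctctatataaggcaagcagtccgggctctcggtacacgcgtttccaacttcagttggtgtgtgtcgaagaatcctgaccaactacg
Sgce: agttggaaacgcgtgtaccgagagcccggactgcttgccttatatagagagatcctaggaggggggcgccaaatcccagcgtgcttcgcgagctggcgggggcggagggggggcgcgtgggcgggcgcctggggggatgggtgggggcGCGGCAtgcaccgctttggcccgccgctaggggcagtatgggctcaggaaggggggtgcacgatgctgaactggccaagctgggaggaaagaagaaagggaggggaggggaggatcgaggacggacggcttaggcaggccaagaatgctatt

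The annotated starts of Peg10 and Sgce were 238 bases apart, and the windows shared 263 bases, which were identical as reverse complements. The capitals therefore mark the same site in both, which begins 141 bases before the Peg10 start and 102 bases before the Sgce start on the other strand. The Peg10 window held 22 CpG dinucleotides and the Sgce window 23, against a median of 7 over all 33469 RefSeq windows, more than 79.0% and 80.5% of those windows.

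In RefSeq, Mest also lies on chromosome 4, Plagl1, Peg3, Inpp5f, Igf2 and Peg12 lie on chromosome 1 and Impact on chromosome 18, and Zrsr1 was not matched. Promoter windows were matched for 8 of the 10 members, 9 windows in all, since Igf2 had more than 1 and Peg12 and Zrsr1 were not matched. CpG counts in these windows lay between 5 in Impact and 29 in Plagl1. TGCCGC, searched on both strands, was present in 4 of the 9 windows, those of Peg10, Sgce, Plagl1 and 1 of Igf2, and in 11.7% of all windows. The match of Peg10 and that of Sgce are the same site, counted in both windows. This motif contains a CpG, and the windows were not matched for CpG count. GGGGCCCC, a palindrome of the kind bound by the PLAGL1 zinc fingers, was found in 1 window, that of Peg3, and in 0.858% of all windows. GCCATNTT, the core of the YY1 site, was in 0 of 9 windows and in 6.96% of all, and TATAAA was in 0 of 9 and in 14.2% of all. A window was counted once for each motif, and no member window held matches of more than 1 of these motifs.

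The windows of Plagl1 and Peg3 are shown for their matches, TGCCGC on the minus strand in Plagl1 at chr1:9297214-9297513 and GGGGCCCC in Peg3 at chr1:76130744-76131043, both with the gene on the plus strand.
Plagl1: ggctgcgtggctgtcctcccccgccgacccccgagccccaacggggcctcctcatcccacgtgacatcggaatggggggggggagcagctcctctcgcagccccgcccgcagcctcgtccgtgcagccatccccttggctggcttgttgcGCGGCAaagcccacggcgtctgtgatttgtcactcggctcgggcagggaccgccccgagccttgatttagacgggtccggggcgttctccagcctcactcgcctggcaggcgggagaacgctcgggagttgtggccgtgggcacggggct
Peg3: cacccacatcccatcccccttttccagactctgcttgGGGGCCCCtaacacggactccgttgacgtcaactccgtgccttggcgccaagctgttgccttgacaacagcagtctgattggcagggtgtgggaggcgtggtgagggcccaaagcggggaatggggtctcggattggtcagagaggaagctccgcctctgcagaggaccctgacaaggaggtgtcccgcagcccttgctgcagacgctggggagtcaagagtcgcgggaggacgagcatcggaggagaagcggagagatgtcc

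Peg10 and Sgce were nearly silent in Nono-KO cells, whereas 4 further members (Plagl1, Impact, Peg3 and Inpp5f) were present at lower counts and the last 4 (Mest, Igf2, Peg12 and Zrsr1) differed little. CPM values are read counts relative to the library total, scaled between libraries by the TMM method, and means are given with their SD over 3 libraries per group. In 9 of 10 members the mean CPM was lower in Nono-KO cells, with a median log2 fold change of -1.45 over the 10 members and -0.05 over all genes tested. In the edgeR fit over all genes, 7 of 10 members fell at a Benjamini-Hochberg adjusted p under 0.05 and 0 rose, where 38.1% of all genes tested fell, 34.2% rose and 72.2% did either. The same 7 members had every Nono-KO library below every WT library, as had 39.0% of all genes tested, and 0 members had every Nono-KO library above every WT library, against 36.1% of all genes. Because the members were chosen on this contrast, nothing is read from these counts.

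**Figure D1:**
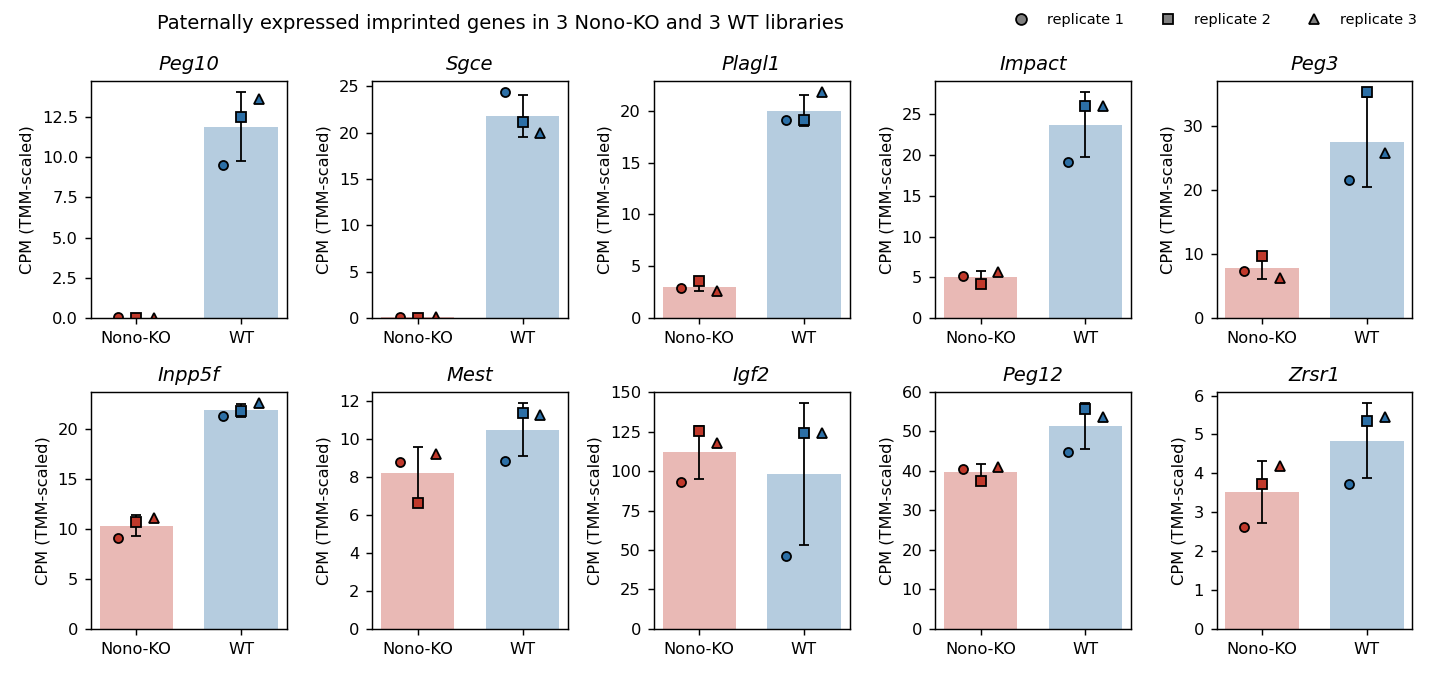
TMM-scaled CPM of the 10 members, with 1 panel for each gene and a separate vertical axis from 0 in each. Bars are means and error bars SD over 3 libraries, Nono-KO in red and WT in blue, and symbols are the single libraries. Peg10 and Sgce are near 0 in the Nono-KO libraries, and in Igf2 the first WT library, at 46.3 CPM, lies below every other library.

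Counts of Nono itself, the targeted gene, were 109, 94 and 96 in Nono-KO, against 7329, 5884 and 5519 in WT. Its level was 5.56 ± 0.707 CPM in Nono-KO cells and 329 ± 31.3 CPM in WT cells (SD, n = 3 each), so the libraries matched their labels. The 6 libraries held 17612958 to 18770188 counts in Nono-KO and 18138400 to 19253858 counts in WT. Pearson correlations between libraries across genes were 0.993 to 0.995 within Nono-KO, 0.985 to 0.993 within WT and 0.890 to 0.918 between the groups, with the first WT library giving the lower values within WT.

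Peg10 encodes a retrotransposon-derived protein with gag and pol domains that the mouse placenta cannot form without. Peg10 counts were 1, 0 and 0 in the Nono-KO libraries, against 191, 234 and 245 in the WT libraries. A single read was thus all that was seen in the Nono-KO group. In CPM the levels were 0.0585, 0 and 0 in Nono-KO, against 9.50, 12.5 and 13.6 in WT. The total in Nono-KO cells was 0.157% of that in WT cells after scaling for library size, with an exact 95% interval (Clopper-Pearson) of 0.00397% to 0.878%. The interval covers counting error only. The fitted log2 fold change was -8.87 (standard error 0.45), and it depends on the prior count added for the fit, since a prior count of 1 gave -7.36 and of 5 gave -5.39. This standard error was derived from the fold and its F statistic. The exact interval is wider than it implies, so it is no measure of precision for so few reads.

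Sgce encodes epsilon-sarcoglycan, a transmembrane glycoprotein of the dystrophin-associated complex, and its paternal mutations in humans cause myoclonus-dystonia. Counts of Sgce were 3, 1 and 2 in the Nono-KO libraries, against 489, 395 and 359 in the WT libraries. In CPM this was 0.112 ± 0.0602 in Nono-KO cells and 21.8 ± 2.26 in WT cells (SD, n = 3 each). All Nono-KO libraries held at least 1 read, unlike those of Peg10. The scaled total in Nono-KO was 0.508% of that in WT (exact 95% interval 0.186% to 1.11%), and the fitted log2 fold change was -7.53 (standard error 0.27). Here too the exact interval is wider than the standard error implies. The intervals of the Peg10 and Sgce shares overlapped.

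Of the 10 genes with a row in the table that flank Peg10 and Sgce on either side in RefSeq order, 7 were retained by the filter. Of these, 5 fell and 1 rose in the edgeR fit, and 1 had an adjusted p of 0.05 or more. Over all genes tested 38.1% fell and 34.2% rose. Casd1, the next gene on the Sgce side and an enzyme that acetylates sialic acid, had 2.46 ± 0.681 CPM in Nono-KO and 5.37 ± 1.49 CPM in WT (SD, n = 3 each), a log2 fold change of -1.11 (standard error 0.26). Beyond Casd1 lie Col1a2, a chain of type I collagen (log2 fold change -0.42), Bet1, a vesicle SNARE that did not pass (-0.30), and Vps50, a subunit of an endosomal tethering complex (-1.85).

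On the Peg10 side, the next gene Ppp1r9a, which encodes neurabin and is imprinted in mouse placenta, stayed under the filter with 2, 8 and 5 counts in Nono-KO, against 0, 0 and 1 counts in WT. Most of its few reads were on the Nono-KO side. Pon2, a paraoxonase, had a log2 fold change of -0.64, the mitochondrial aspartate and glutamate carrier Slc25a13 of -1.66, and Sem1, a small proteasome lid subunit, of 0.52. Dync1i1, and on the Sgce side Samd9, stayed under the filter with at most 5 counts in any library. The log2 fold changes of the 7 neighbours tested thus lay between -1.85 and 0.52, against -8.87 for Peg10 and -7.53 for Sgce, the pair by which this stretch was picked. Levels of a neighbour are not compared with those of Peg10, because counts are not scaled by gene length.

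**Figure D2:**
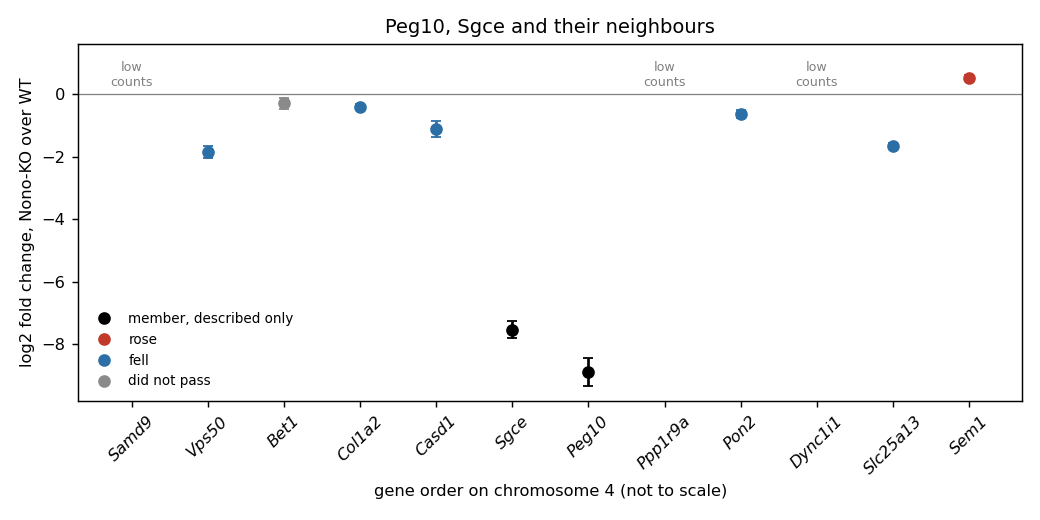
Log2 fold changes of Nono-KO over WT (vertical axis) for Peg10, Sgce and their neighbours in gene order on chromosome 4 (horizontal axis, not to scale), with bars for the standard error. Peg10 (-8.87) and Sgce (-7.53) are drawn in black as descriptions, and of the neighbours tested Vps50 lies lowest at -1.85. For Peg10 and Sgce the bars are narrower than the exact intervals given in the text.

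Of 11290 tested genes with a symbol that is no placeholder, those whose profile over the 6 libraries lay nearest to Peg10 were Tspan18 (Euclidean distance of centred log2 values 0.208), Foxc2 (0.477) and Sgk1 (0.502). Tspan18, a tetraspanin, had 55, 58 and 61 counts in Nono-KO, against 1351, 1708 and 1989 counts in WT. Foxc2 is a forkhead transcription factor and Sgk1 a kinase of the AGC family. The nearest to Sgce were the protocadherin Pcdh1 (0.648), Nono itself (0.720) and Peg10 (0.960). Pcdh1 had 7, 9 and 4 counts in Nono-KO, against 699, 417 and 596 counts in WT. The offset of 0.5 CPM in this scale makes a gene at 0 look like one that is merely low, so nearness says only that the 6 values are alike.

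Plagl1 (also named Zac1) encodes a zinc finger transcription factor that restrains cell growth and, in mouse, binds other imprinted genes. Plagl1 counts were 50, 64 and 50 in the Nono-KO libraries, against 384, 358 and 391 in the WT libraries. The groups lay far apart. The mean was 3.05 ± 0.469 CPM in Nono-KO cells and 20.0 ± 1.52 CPM in WT cells (SD, n = 3 each), which is 6.56-fold higher in WT, a log2 fold change of -2.71 (standard error 0.16).

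Impact encodes an RWD-domain protein that binds Gcn1 and thereby holds back the amino acid sensing kinase Gcn2. Impact counts were 89, 75 and 106 in the Nono-KO libraries, against 384, 486 and 467 in the WT libraries. Even the lowest WT library was several times the highest Nono-KO library. The mean was 5.00 ± 0.741 CPM in Nono-KO cells and 23.7 ± 3.97 CPM in WT cells (SD, n = 3 each), with a log2 fold change of -2.24 (standard error 0.17).

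Peg3 encodes a large zinc finger protein expressed in muscle progenitors and brain. Its counts were 125, 175 and 120 in the Nono-KO libraries, against 433, 660 and 464 in the WT libraries. In both groups the second library was the highest, and the groups did not overlap. The level was 7.80 ± 1.75 CPM in Nono-KO cells and 27.6 ± 7.04 CPM in WT cells (SD, n = 3 each), with a log2 fold change of -1.82 (standard error 0.20).

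Inpp5f encodes Sac2, a phosphatase of phosphatidylinositol 4-phosphate on endosomes. In mouse only a short transcript of Inpp5f is imprinted, and the counts sum all of its transcripts. Inpp5f counts were 156, 193 and 209 in the Nono-KO libraries, against 428, 407 and 406 in the WT libraries. The WT libraries were nearly alike, with a coefficient of variation of 3.00%, the smallest of the 10 members in WT. The mean was 10.3 ± 1.04 CPM in Nono-KO cells and 21.9 ± 0.657 CPM in WT cells (SD, n = 3 each), a log2 fold change of -1.08 (standard error 0.12).

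Peg12 (also named Frat3) belongs to the Frat family, whose proteins bind the kinase Gsk3 and promote Wnt signalling. Peg12 counts were 693, 673 and 775 in the Nono-KO libraries, against 900, 1041 and 964 in the WT libraries. The groups did not overlap, but the gap between them was small. The mean was 39.7 ± 1.94 CPM in Nono-KO cells and 51.4 ± 5.79 CPM in WT cells (SD, n = 3 each), with a log2 fold change of -0.37 (standard error 0.10).

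Mest encodes an enzyme-like protein of the alpha/beta hydrolase fold that marks early mesoderm in mouse. It had 8.77, 6.62 and 9.21 CPM in the Nono-KO libraries, against 8.86, 11.3 and 11.2 CPM in the WT libraries. The third Nono-KO library lay above the first WT library, so the groups overlapped. The log2 fold change was -0.35 (standard error 0.17).

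Zrsr1 encodes a splicing factor related to the small subunit of U2AF and in mouse lies within an intron of Commd1. Zrsr1 counts were 45, 67 and 79 in the Nono-KO libraries, against 75, 100 and 98 in the WT libraries. The groups overlapped through the third Nono-KO and the first WT library. The mean was 3.52 ± 0.798 CPM in Nono-KO cells and 4.84 ± 0.965 CPM in WT cells (SD, n = 3 each), with a log2 fold change of -0.46 (standard error 0.23). How reads shared with its relative Zrsr2 were counted is not stated, so this level is uncertain.

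Igf2 encodes insulin-like growth factor 2, a fetal growth factor. It had 93.1, 125.1 and 117.5 CPM in the Nono-KO libraries, against 46.3, 124.1 and 124.1 CPM in the WT libraries. The first WT library was far below the other WT libraries, which lay within the range of the Nono-KO libraries. The log2 fold change was 0.19 (standard error 0.37) over all libraries and -0.15 without the first WT library, so its sign rested on that library.

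The first WT library was the lowest of the WT libraries in 9 of the 10 members, the exception being Sgce, whose lowest was the third, and it was the lowest WT library in 42.1% of all genes tested, against 30.3% for the second and 27.6% for the third. Its level over the mean of the other WT libraries was 0.373 in Igf2, 0.691 in Zrsr1, 0.705 in Peg3, 0.727 in Peg10 and 0.735 in Impact. In Mest it was 0.785, in Peg12 0.819, in Plagl1 0.934, in Inpp5f 0.960 and in Sgce 1.18. The median of this ratio was 0.760 over the members and 0.975 over all genes tested. Without this library 9 of 10 members fell in the edgeR fit, Mest and Zrsr1 being added, where 4761 of all genes fell, against 4578 with it, and nothing is read from this count either. The filter was applied anew without this library, so the number tested may differ and no share of all genes is given. In Peg10, Sgce, Plagl1, Impact, Peg3, Inpp5f and Peg12 its level still lay above every Nono-KO library.

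**Figure D3:**
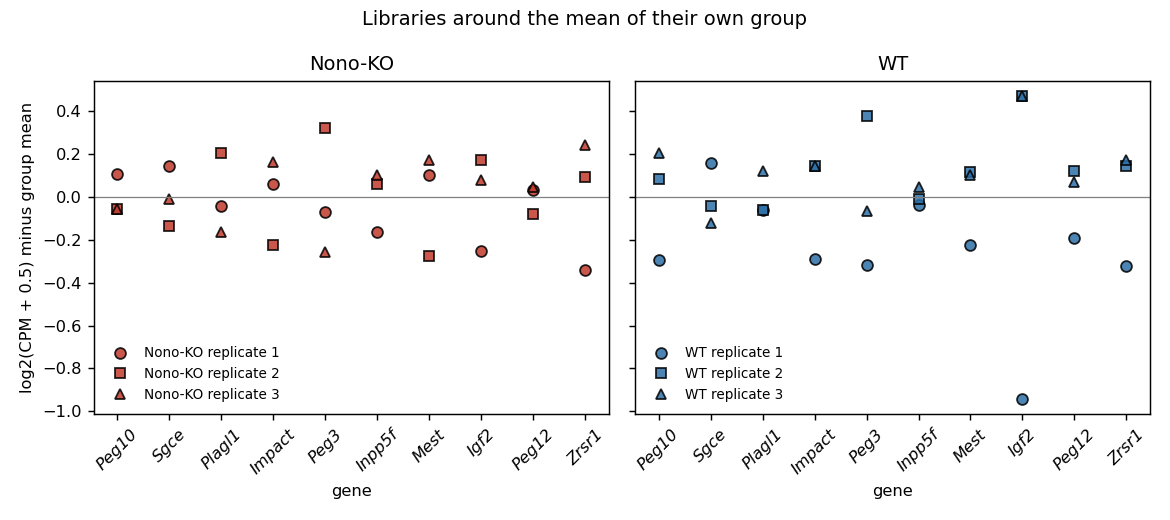
Difference of each library from the mean of its own group in log2(CPM + 0.5) (vertical axis) for the 10 members (horizontal axis), with Nono-KO on the left, WT on the right and a symbol for each replicate. The first WT library lies under the WT mean in 9 members, farthest in Igf2, and above it in Sgce.

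Within the groups some members varied together over the 6 libraries and others in opposite directions. The Pearson correlation of the deviations from the group mean was 0.972 between Mest and Impact, 0.951 between Peg12 and Impact and 0.874 between Peg12 and Mest (n = 6 libraries each). It was -0.863 between Zrsr1 and Sgce, -0.841 between Igf2 and Sgce, -0.741 between Inpp5f and Sgce and -0.461 between Sgce and Peg10, where Sgce and Peg10 rest on a few reads in Nono-KO. Except for Sgce and Peg10, these pairs were picked as the highest and lowest of all pairs of members. In log2(CPM + 0.5), the first WT library deviated by -0.22 in Mest, -0.29 in Impact, -0.19 in Peg12, -0.94 in Igf2 and -0.32 in Zrsr1. It deviated by -0.04 in Inpp5f, -0.29 in Peg10 and 0.16 in Sgce. The points share the libraries, their scaling factors and the group means subtracted, so they are not independent and these values are descriptions. Among the better counted genes the widest spread within a group was that of Igf2 in WT, with a coefficient of variation of 45.8%, against 15.0% in Nono-KO.

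Other imprinted genes moved in both directions. The counts of this list and of those that follow stand beside 34.2% of all genes tested that rose and 38.1% that fell. Of 26 further paternally expressed genes listed, 12 had a row in the table and 6 were tested, of which 3 rose, 1 fell and 2 did not pass, with a median log2 fold change of 0.43. Ddc (1.39), an amino acid decarboxylase, the amino acid transporter Slc38a4 (0.72) and Mcts2 (0.46), a translation factor retrogene that may share reads with Mcts1, rose, and Sfmbt2 (-2.10), a Polycomb group protein of the mouse trophoblast, fell. Without the third WT library 1 rose. Of 41 maternally expressed genes, 23 were tested, and 11 rose, 9 fell and 3 did not pass, with a median of 0.10. Phlda2, a brake on placental growth, had 4.16 ± 0.444 CPM in Nono-KO and 0.473 ± 0.0792 CPM in WT (SD, n = 3 each), while the transporter Slc22a18 (1.24) rose and the tetraspanin Cd81 (3.99) rose with so few counts in WT that its fold is imprecise. Htr2a (-2.17), a serotonin receptor, Ago2 (-2.11), the small RNA effector, and the ubiquitin ligase Ube3a (-1.55) fell.

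The genes that flank the members also moved in both directions. Of 80 such neighbours 60 were tested, and 19 rose, 29 fell and 12 did not pass, with a median log2 fold change of -0.33. Over all genes tested 34.2% rose and 38.1% fell. Of all 80, 5 are also in the list of other paternally expressed genes and 9 in that of maternally expressed genes. Taf4b (-2.46), a TFIID subunit near Impact, and Zfp28 (-2.27), a zinc finger gene near Peg3, fell, and Cpa4 (4.36, with few counts in WT), a carboxypeptidase near Mest, and Sf3b5 (0.71), a splicing factor subunit next to Plagl1, rose.

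**Figure D4:**
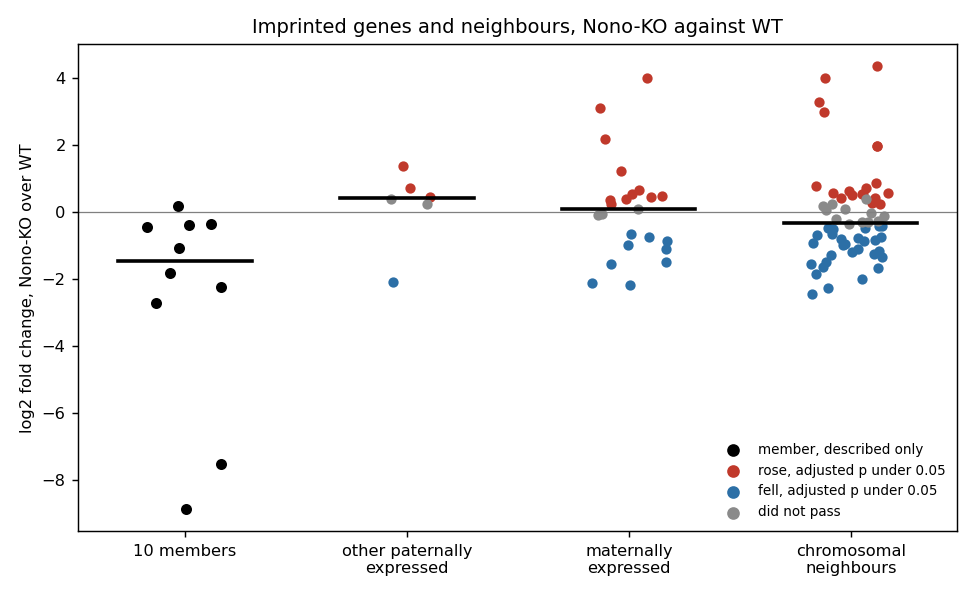
Log2 fold changes of Nono-KO over WT (vertical axis) of the 10 members, the 6 other paternally expressed genes, the 23 maternally expressed genes and the 60 chromosomal neighbours tested, with 1 point per gene and a line at each median. The medians are -1.45, 0.43, 0.10 and -0.33, and the members were chosen with this difference known.

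The list of imprint maintenance and DNA methylation holds genes that set, keep, read or remove DNA methylation. It also holds genes of histone methylation, such as Ezh2 and Ehmt1, and of DNA-binding proteins, such as Ctcf and Yy1. Among the 26 tested, 18 fell and 4 rose while 4 did not pass, with a median log2 fold change of -0.64. Over all genes tested 38.1% fell and 34.2% rose. Arid4a (-2.12) and Arid4b (-1.47), chromatin proteins needed at the Snrpn domain in mouse, and Suz12 (-1.41), a subunit of Polycomb repressive complex PRC2, fell. The histone methyltransferase gene Ehmt2 (0.81), Trim28 (0.45) and Cbx5 (0.41), the gene of heterochromatin protein HP1 alpha, rose. Without the third WT library 2 rose. Of genes named after their values were seen, Tet2 (-1.27) and Tdg (-0.40), which act in the removal of DNA methylation, fell. So did the DNA methyltransferase genes Dnmt1 (-0.63), Dnmt3a (-0.64) and Dnmt3b (-1.25), while Tet3 (-0.27) did not pass and Uhrf1 (0.37) rose. Zfp57, named for the motif above after its value was seen, had 30.9 ± 1.52 CPM in Nono-KO and 31.1 ± 1.36 CPM in WT (SD, n = 3 each) and did not pass. The methylation of the control regions was not measured in these libraries.

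**Figure D5:**
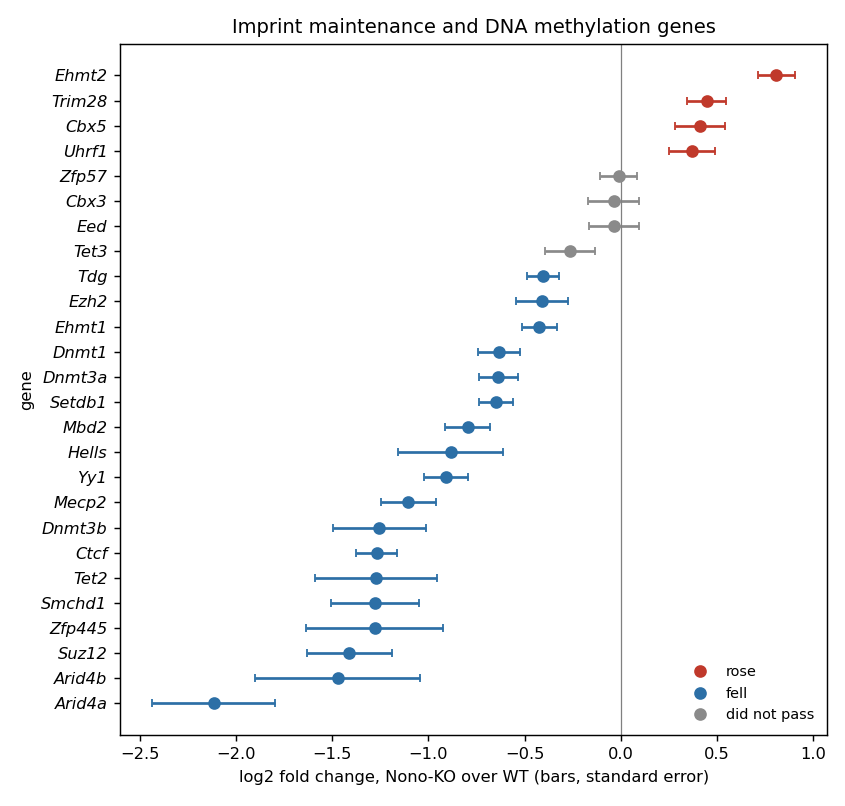
Log2 fold changes of Nono-KO over WT (horizontal axis, bars for the standard error) of the 26 tested genes of imprint maintenance and DNA methylation (vertical axis). In red are the 4 that rose, in blue the 18 that fell and in grey the 4 that did not pass.

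The partners, relatives and targets of the members moved in both directions. Of 12 genes of the sarcoglycan and dystrophin-associated complex around Sgce, 4 rose and 5 fell, with a median log2 fold change of -0.35. Sgca, the alpha-sarcoglycan whose place epsilon-sarcoglycan can take, had 254.9 ± 17.2 CPM in Nono-KO and 174.8 ± 15.8 CPM in WT (SD, n = 3 each), and utrophin, Utrn (-1.64), fell. Of 5 tested genes of the retrotransposon gag families to which Peg10 belongs, Rtl8a (0.49), which may share reads with its close copies, and Ldoc1 (0.47) rose and Arc (-2.46) and Rtl5 (-1.62) fell, and 1 rose without the first Nono-KO, the second Nono-KO or the third WT library. Of the 4 tested relatives and targets of Plagl1, Plag1 (-2.28), Plagl2 (-1.16) and Tcf4 (-0.76) fell and the cell cycle inhibitor Cdkn1a (1.71) rose.

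Around Impact, 3 of 10 genes of the Gcn2 arm rose, 3 fell and 4 did not pass. Gcn2 itself, Eif2ak4, fell (-0.52), Atf4 (0.03) and Gcn1 (0.17) did not pass, and Trib3, a pseudokinase downstream of Atf4, had 127.2 ± 17.5 CPM in Nono-KO and 38.2 ± 2.57 CPM in WT (SD, n = 3 each). Ddit3 (0.70) and Atf3 (0.54) rose as well, whereas Ppp1r15b (-1.01) and Asns (-0.37) fell. Of 13 genes that bind, process or receive Igf2, 4 rose and 7 fell. The protease gene Pappa2 (2.12) and the binding protein gene Igfbp4 (1.05) rose, and the mRNA-binding protein gene Igf2bp2 (-1.74) and the insulin receptor gene Insr (-1.24) fell.

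Of 10 phosphoinositide phosphatases related to Inpp5f, 1 rose and 5 fell, with Synj1 (-2.08), synaptojanin 1, and Ocrl (-1.45) among those that fell. Of 6 Frat and Gsk3 genes around Peg12, 3 rose and 2 fell, with Frat2 at 0.49, Axin2, a Wnt target, at 1.30 and Gsk3b at -1.15. Of 6 genes of the U2AF family of Zrsr1, U2af1l4 (0.38) rose, Sf3b1 (-1.43) and Sf1 (-0.63) fell and 3 did not pass, and 0 rose without the second Nono-KO, the second WT or the third WT library.

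Markers of cell state also differed between the groups. Of 14 myoblast and striated muscle markers listed, 10 were tested, of which 6 rose and 0 fell, and their summed level was 972 to 1129 CPM in the Nono-KO libraries and 200.2 to 321.3 CPM in the WT libraries. The myogenic factor Myog (4.03) and the skeletal actin Acta1 (5.04) rose, and Myod1 (0.26) did not pass. Among heart genes of this list, Nkx2-5 (0.96), Actn2 (2.81) and Actc1 (3.71) rose, Actn2 and Actc1 with few counts in WT. Tnnt2 (1.14) and Gata4 (0.23) did not pass. Tnnt2 had 1895, 2428 and 2583 counts in Nono-KO, against 269, 1459 and 1492 counts in WT, with the first WT library far below the others. The adult heart markers Ryr2, Myh6 and Myh7 had at most 18 counts in any library. All these heart genes were singled out with their values already known. Of 9 tested fibroblast markers 4 rose, or 2 without the third WT library, and 4 fell. The summed level of this list was 29450 to 34600 CPM in Nono-KO and 37810 to 45610 CPM in WT. Most of this sum came from Col1a1 (mean 13190 CPM in Nono-KO and 18300 CPM in WT) and Col1a2 (13860 and 18480 CPM), which both fell. Among the less abundant markers, Fbln2 (2.3), Fbln1 (1.01) and S100a4 (0.43) rose, and Gpc6 (-1.75) and Postn (-0.79) fell. The part of these marker differences in the values of the members was not tested. In bulk RNA, fewer cells that express a gene and less RNA of it per cell cannot be told apart.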

How the data were processed

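RNA was extracted with TRIzol and sequenced from stranded mRNA libraries. The authors deposited raw read counts per gene symbol, unscaled and 1 column per library, and the files of single libraries held the same counts as the table of all 6. For trimming, alignment and counting, Trimmomatic, HISAT2 and HTSeq are listed in the submitters' processing notes with the build mRatBN7.2 and no tool versions, while the study's methods give Bowtie2 and Rn6. Neither the annotation nor whether reads were counted by strand is given in the sources used. Reads of overlapping or antisense genes, and of near-identical copies, may therefore have been merged, split or dropped, which touches Zrsr1, Mcts2 and Rtl8a most.

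The members and gene lists were chosen with earlier results of these data known. Counts were fitted in R 4.3.3 with the quasi-likelihood test of edgeR 4.0.16 (TMM scaling, filterByExpr, robust dispersions), with Benjamini-Hochberg adjustment over all 12028 genes tested. A gene rose or fell if its adjusted p was under 0.05, and was a DEG if its adjusted p was under 0.01 with a log2 fold change beyond 1 in size. Totals of 17612958 to 19253858 counts per library mean that a gene with a few counts has no precise fold, so Peg10 and Sgce are also given as a ratio of scaled totals. The alternatives were DESeq2 1.42.0, RLE size factors, total counts, other filters, prior counts of 1 and 5, the DEG thresholds, the replicate number as a block and leaving out each library in turn. The fit was also run on simulated counts of 11900 genes, with 50 genes changed at each fold. Of these, 26 were called at 1.5-fold, 44 at 2-fold, 50 at 4-fold and 49 at 8-fold, with 9 unchanged genes called. Far fewer genes changed there than in these data, so scaling under so broad a change was not tested. Within a group, libraries differed by more than sampling noise, so none was counted as a repeat.

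All 10 members are named. From every other list were named genes of the smaller direction if 3 or fewer, the 3 largest changes in each direction (higher group at 1 CPM or more) and the 2 most abundant genes, from which examples were taken, with all neighbours of Peg10 and Sgce and the 3 genes nearest to each in profile. Chromosomes, gene order and promoter windows come from RefSeq, GRCr8, another build than that of the counts, in which 14844 symbols of the table and 9 of 10 members were matched. No other coordinates are given. The values of 1 listed gene are not reported here.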

Additional observations from a re-analysis of the deposited data

How the results depend on the processing

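Over 50 results, 612 values were computed under alternatives, of which 564 had the same direction or call and stayed near the value reported, 47 moved and 1 reversed. The 1 that reversed was the log2 fold change of Igf2, -0.15 without the first WT library and -0.15 to 0.39 over the libraries left out. The number of members that fell was 7 under every alternative of scaling, filter and tool and under the replicate block, 6 at the DEG thresholds, where 18.7% of all genes tested fell, and 7 to 9 without single libraries, where 4105 to 4761 of all genes fell. The filter was applied anew without each library, so no share of all genes is given there. The fitted log2 fold change of Peg10 was -9.19 by DESeq2, -7.36 and -5.39 with prior counts of 1 and 5, and -10.79 to -8.36 without single libraries. That of Sgce was -7.05 and -5.85 with those prior counts and -7.95 to -7.22 without single libraries. These follow from the few counts in Nono-KO cells, to which the prior count is added.

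At the DEG thresholds 1294 genes rose and 2252 fell, which is 10.8% and 18.7% of all genes tested. There, 1 other paternally expressed gene rose, 4 maternally expressed genes rose and 5 fell, 0 genes of imprint maintenance rose and 9 fell, 0 of the gag families rose, 2 sarcoglycan partners rose and 2 fell, and 2 genes around Igf2 rose and 2 fell. In the Gcn2 arm 1 rose and 1 fell, in the U2AF family 0 rose and 1 fell, among Frat and Gsk3 genes 1 rose and 1 fell, among phosphoinositide phosphatases 0 rose and 3 fell, among fibroblast markers 1 rose and 1 fell, and among chromosomal neighbours 6 rose and 14 fell. With total counts 1 gag family gene and 0 U2AF genes rose, with RLE size factors 2 U2AF genes rose, and with no filter 1 endothelial marker rose. Without single libraries the genes that rose numbered 1 to 4 in the other paternally expressed list, 2 to 4 in imprint maintenance, 1 to 3 in the gag families, 0 to 1 in the U2AF family and 2 to 4 among fibroblast markers.

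No pairing by replicate number was evident. The correlations of the deviations of same-numbered libraries were 0.05, -0.17 and -0.19, against -0.125 to 0.251 between libraries of different number. Deviations within 3 libraries are not independent, so these values cannot exclude a pairing. With the replicate number as a block 3944 genes rose and 4443 fell, against 4108 and 4578 without it. The median log2 fold change of all genes was -0.11 with total counts, 0.00 with RLE size factors and 0.10 with DESeq2, which was fitted without the edgeR filter. The counts of promoter windows with each motif were the same with 250 bases before the start alone. Depth limits Peg10 and Sgce in Nono-KO cells, where 1 and 6 reads set the values.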

Other observations

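Markers of cell types that neither the labels nor the members name were also counted. Of 8 endothelial markers 2 were tested, and both fell: Flt1, a receptor of vascular endothelial growth factor, had 40.7 ± 1.11 CPM in Nono-KO and 238.4 ± 71.3 CPM in WT (SD, n = 3 each) (log2 fold change -2.55), and Vwf, the von Willebrand factor gene, had 0.846 ± 0.231 CPM in Nono-KO and 3.58 ± 0.811 CPM in WT. The other 5 with a row had at most 8 counts in any library.

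Of 11 pluripotent and trophoblast markers, a list kept because Peg10 and Phlda2 are placental genes in mouse, 1 was tested. Cdx2, a homeobox gene of the trophectoderm and the gut, had 13.4 ± 0.946 CPM in Nono-KO and 28.5 ± 3.13 CPM in WT (SD, n = 3 each) and fell by 1.09 on the log2 scale. The other 5 with a row had at most 7 counts in any library.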
